A study of Mus musculus with 30 samples.

Results

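The 10 genes described here are 7 that encode enzymes of fatty acid synthesis from citrate in the liver and 3 that are tied to that pathway. They are Fasn, Acaca, Acacb, Acly, Scd1, Elovl6, Me1, Srebf1, Thrsp and Pnpla3, chosen by name as the core of de novo fatty acid synthesis. All 10 had a probe set annotated to that gene alone, out of 18193 genes on the array with such a probe set, and all 10 were among the 12795 genes tested. Where a gene had several such probe sets, the one brightest on average over the 30 arrays was read. Each of the 10 chosen probe sets exceeded the median of the array on all 30 arrays.

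Affymetrix arrays, 30 in all and 3 for each of 10 groups, were hybridized with liver RNA of adult male mice on a C57BL/6J background. The genotypes were hCAR/hPXR (mouse CAR and PXR replaced by the human receptors), CARko/PXRko (both receptors deleted), PXRko and wild type. CAR and PXR are nuclear receptors that sense foreign chemicals and switch on drug-metabolizing genes. In the hCAR/hPXR, CARko/PXRko and wild type genotypes, mice received cyproterone acetate (CPA, a synthetic steroid that blocks androgen receptors and acts as a progestin, 160 mg/kg), 1,4-dichlorobenzene (DCB, a solvent and moth repellent, 600 mg/kg) or corn oil (0 mg/kg) daily by gavage. The PXRko group received corn oil alone. By the labels CPA was given for 6 days in the hCAR/hPXR and wild type genotypes and for 3 days in CARko/PXRko, whereas the protocol gives 3 days for every treatment. DCB and corn oil are labelled as 3 days throughout, so a CPA effect in hCAR/hPXR or wild type mice carries the labelled duration too. Sources used here do not name a promoter or a line for any allele. By the design text a group had 5 mice, of which 3 arrays are described here, and no label says that an array stands for 1 mouse. The spread behind the p-values is therefore that between arrays, which may be partly technical.

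De novo fatty acid synthesis is the pathway by which the liver stores surplus carbohydrate as fat. ATP citrate lyase (Acly) makes acetyl-CoA, acetyl-CoA carboxylases (Acaca and Acacb) make malonyl-CoA, and fatty acid synthase (Fasn) builds palmitate from them with NADPH, part of which malic enzyme (Me1) supplies. Elovl6 lengthens palmitate and Scd1 puts in the first double bond. Srebf1 encodes SREBP-1, the transcription factor that switches on this set after feeding and insulin, Thrsp encodes the lipogenic protein Spot 14, and Pnpla3 encodes a lipid droplet protein whose gene is itself an SREBP-1 target in mouse liver. Transcripts of the set are known to fall in fasting and to recover with refeeding.

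The labels were checked against the receptor transcripts and the tissue markers. Nr1i3 (mouse CAR) lay between 6.05 and 6.86 on the log2 scale in the hCAR/hPXR and CARko/PXRko groups and between 9.32 and 10.60 in the PXRko and wild type groups. Nr1i2 (mouse PXR) lay between 4.25 and 4.97 in the hCAR/hPXR, CARko/PXRko and PXRko groups and between 6.75 and 8.06 in the wild type groups; these probe sets read the mouse transcripts. The 5 measured hepatocyte markers had medians between 14.67 and 15.04 on every array. Transcripts of other tissues stood out on 4 arrays. The median of 17 skeletal muscle markers was 7.48 log2 units above the wild type corn oil arrays on corn oil CARko/PXRko replicate 2, 7.09 on DCB CARko/PXRko replicate 3, 2.45 on DCB CARko/PXRko replicate 2 and 1.65 on corn oil PXRko replicate 3. The median of the 5 measured adipocyte markers was 3.70 above on DCB CARko/PXRko replicate 3 and 1.17 above on corn oil CARko/PXRko replicate 2. DCB CARko/PXRko replicate 3 also carried brown fat markers (6.77 above, 4 measured) and adrenal cortex markers (6.62 above, 3 measured). Fat tissue also makes fatty acids with these enzymes, and the comparisons of the 10 genes that use these arrays are also given without them.

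RefSeq promoter sequences (assembly GRCm38.p6, 250 bases before to 50 bases after the transcript start) were found for 9 of the 10 genes, 12 promoters in all, and Scd1 had no entry. Those of Fasn, Thrsp and Pnpla3 are shown because these genes gave the 3 largest CPA differences in hCAR/hPXR mice. Each runs 5′ to 3′ along the strand of the gene, and capitals mark CCAAT, or ATTGG where the motif lies on the other strand. The Fasn promoter is at chr11:120824498-120824797 (minus strand), that of Thrsp at chr7:97417501-97417800 (minus strand) and that of Pnpla3 at chr15:84167566-84167865 (plus strand).
Fasn: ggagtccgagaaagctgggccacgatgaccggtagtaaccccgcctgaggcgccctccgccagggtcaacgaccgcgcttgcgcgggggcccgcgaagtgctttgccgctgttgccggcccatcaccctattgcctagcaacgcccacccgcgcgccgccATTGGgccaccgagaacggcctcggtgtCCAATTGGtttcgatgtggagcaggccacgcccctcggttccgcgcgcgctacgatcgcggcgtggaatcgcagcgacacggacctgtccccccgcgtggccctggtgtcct
Thrsp: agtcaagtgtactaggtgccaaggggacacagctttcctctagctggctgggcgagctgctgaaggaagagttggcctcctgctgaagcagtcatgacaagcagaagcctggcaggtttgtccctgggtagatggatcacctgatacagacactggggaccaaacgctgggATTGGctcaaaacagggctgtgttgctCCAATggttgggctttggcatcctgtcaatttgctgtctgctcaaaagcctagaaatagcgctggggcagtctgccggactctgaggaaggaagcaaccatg
Pnpla3: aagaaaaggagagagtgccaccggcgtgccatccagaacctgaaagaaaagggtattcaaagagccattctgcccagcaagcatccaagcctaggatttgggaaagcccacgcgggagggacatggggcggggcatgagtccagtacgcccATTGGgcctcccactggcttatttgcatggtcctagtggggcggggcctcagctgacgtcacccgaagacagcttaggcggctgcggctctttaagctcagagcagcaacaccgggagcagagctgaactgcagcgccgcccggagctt
CCAAT is the box bound by NF-Y, a partner of SREBP-1 on many lipogenic promoters. It was present 3 times in the Fasn window, at 90, 62 and 59 bases before the start, the last a pair of overlapping matches on opposite strands with the one at 62. The Thrsp window held it at 79 and 52 bases before the start and the Pnpla3 window at 99 bases. CCAAT was in 8 of the 12 promoters, covering 7 of the 9 genes, and 37.4% of all 32851 promoters of the same length held it. GGGCGG, read by Sp1 family proteins, was in 5 of the 12 promoters, covering 4 of the 9 genes, and in 35.7% of all promoters. CACGTG (an E-box, in 7.15% of all promoters) and TCACNCCA (a sterol response element pattern, in 4.36%) were found in none of the 12 windows. Both strands were searched, and no pair of different motifs shared bases in the 3 windows shown.

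The 10 genes varied together from array to array within the groups. After group means were removed, the correlation between pairs of the 10 genes over the 30 arrays had a median of 0.79 and ranged from 0.47 (Me1 with Pnpla3) to 0.96 (Fasn with Acly) over 45 pairs. The same measure between the 10 genes and all other genes tested had a median of 0.01. These correlations share the arrays and their normalization and are given as a description. The spread within groups was correspondingly large. Pooled over groups, the SD was 1.28 for both Fasn and Thrsp, 1.12 for Elovl6 and between 0.56 and 0.99 for the other genes, against a median of 0.23 over all genes tested. For Fasn, 99.5% of the tested genes had a smaller SD, and for Scd1, which had the smallest SD of the set, 95.4% did.

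**Figure D1:**
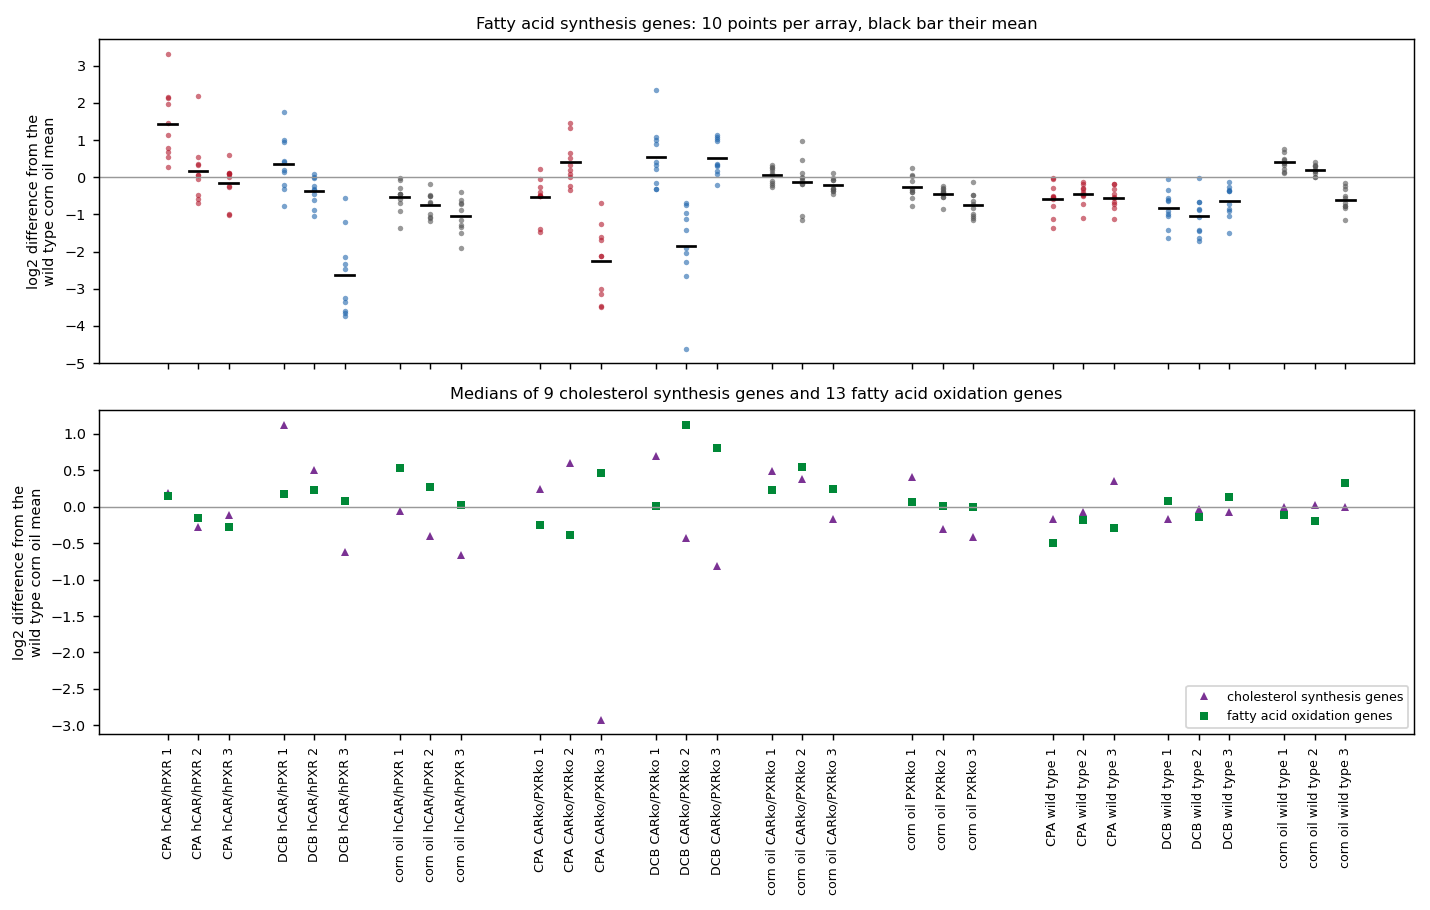
The upper panel plots, for each of the 30 arrays, the log2 difference of each of the 10 genes from its mean in wild type corn oil mice, with a black bar at the mean of the 10, and the lower panel plots the medians of 9 cholesterol synthesis genes and 13 fatty acid oxidation genes on the same scale. On DCB hCAR/hPXR replicate 3, CPA CARko/PXRko replicate 3 and DCB CARko/PXRko replicate 2 the mean of the 10 genes lay between -2.63 and -1.84, and on CPA hCAR/hPXR replicate 1 it was 1.45.

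On 4 arrays every one of the 10 genes was the lowest of its group. The mean of the 10 genes relative to wild type corn oil was -2.63 on DCB hCAR/hPXR replicate 3, against -0.38 and 0.36 on its partners. On CPA CARko/PXRko replicate 3 it was -2.26, with -0.53 and 0.40 on the other arrays of that group. DCB CARko/PXRko replicate 2 had -1.84, against 0.55 and 0.53. Corn oil wild type replicate 3 had -0.60, below 0.40 and 0.20, so the control group itself was split. On another 2 arrays every gene was the highest of its group, namely CPA hCAR/hPXR replicate 1 (1.45) and CPA CARko/PXRko replicate 2 (0.40). The CPA and DCB groups of wild type mice were more even, with means between -0.58 and -0.45 under CPA and between -1.04 and -0.65 under DCB. What sets the low and high arrays apart was not tested. In whole liver, fewer cells of a type and less RNA per cell cannot be told apart.

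In hCAR/hPXR mice all 10 genes averaged higher under CPA than under corn oil, with a median difference of 1.34 log2 units and a range from 0.40 to 2.26. The difference was largest for Pnpla3 (2.26 ± 0.73, SE, n = 3 arrays in each group here and throughout), followed by Thrsp, Fasn and Acacb. None passed the test at an adjusted p under 0.05 (limma, two-sided, Benjamini-Hochberg over 12795 genes), whereas 4.42% of all genes tested were called in this comparison. Unadjusted p-values under 0.05 were found for 4 of the 10, Pnpla3, Acacb, Acaca and Me1. The share of all genes tested with such a p is not given here or below, so such counts cannot show an excess. The 3 CPA arrays all lay above the 3 corn oil arrays for 7 of the 10 genes (Fasn, Acaca, Acacb, Scd1, Me1, Thrsp and Pnpla3), as they did for 9.7% of all genes tested. The median difference over all genes tested was -0.02. CPA is labelled as 6 days here and its corn oil control as 3 days. Markers of other cells moved as well. Of 8 Kupffer cell and macrophage markers 4 fell, and the median of the 8 relative to wild type corn oil lay between -1.23 and -0.41 on the CPA arrays, against 0.06 to 0.37 on the corn oil arrays. Medians of the skeletal muscle markers lay between -0.09 and 0.14 on the CPA arrays, against -0.07 to 0.05 on the corn oil arrays, and those of the adipocyte markers between -0.07 and 0.29, against -0.09 to 0.00. The part of the macrophage transcripts in the result was not tested.

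**Figure D2:**
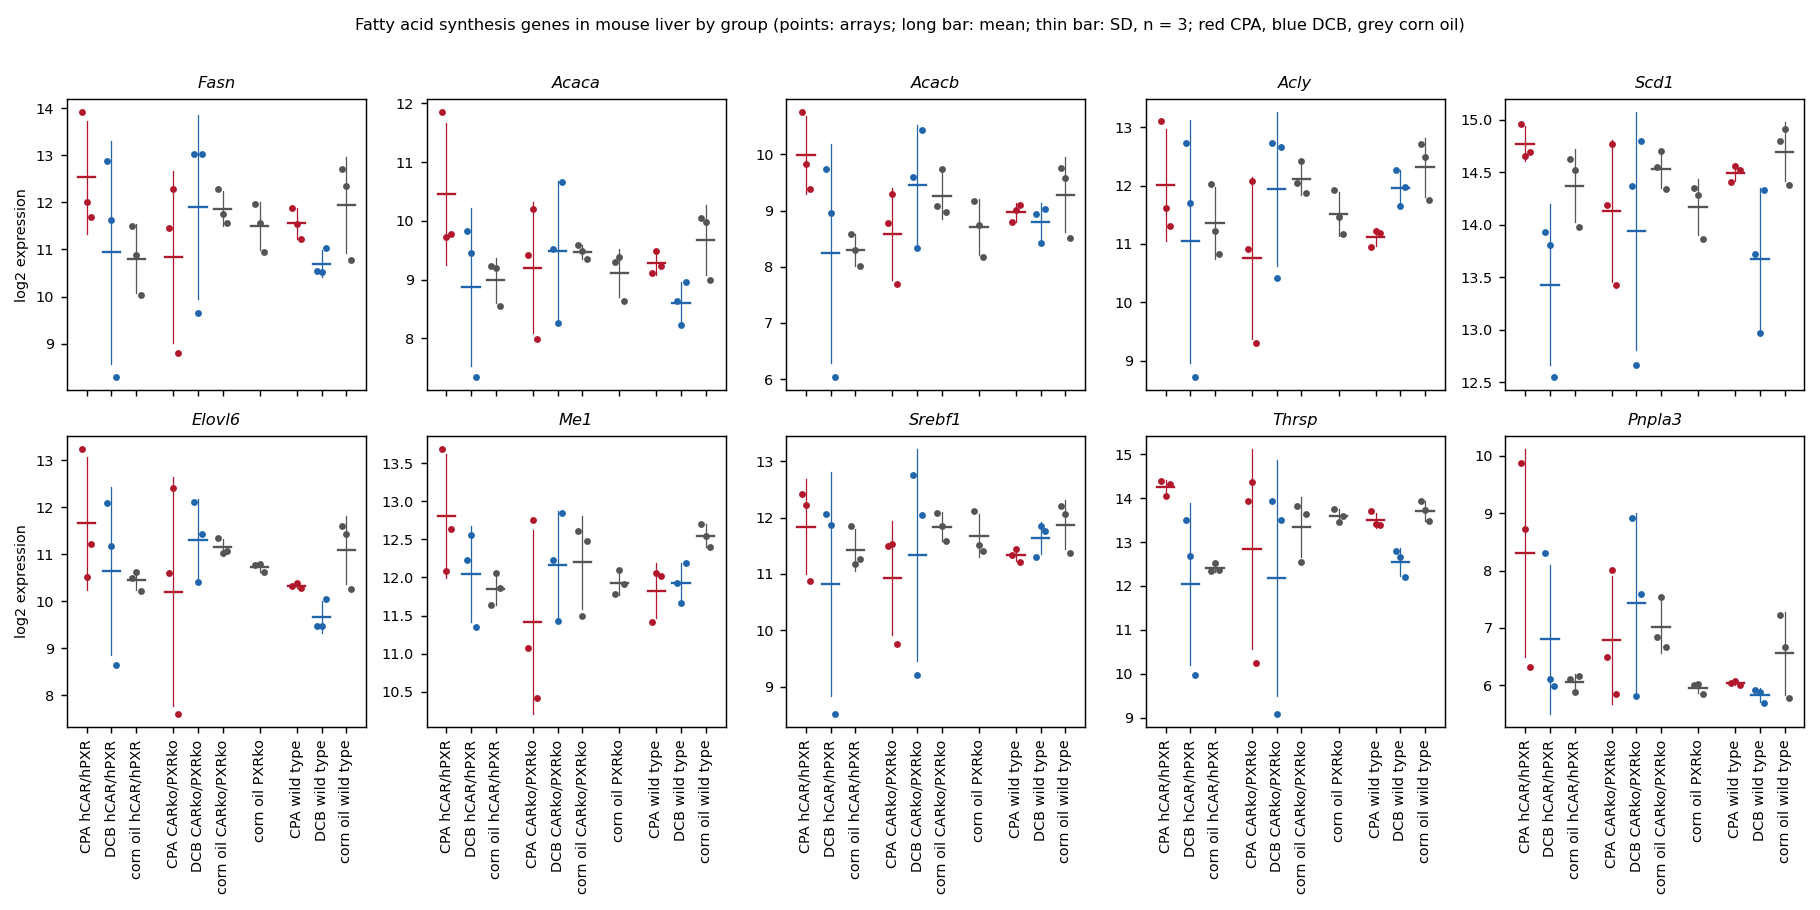
Log2 expression of each of the 10 genes is plotted by group, one panel per gene, with a point per array, a long bar at the mean and a thin bar for the SD (n = 3). Mean levels were highest under CPA in hCAR/hPXR mice for 8 of the 10 genes, and for Fasn the SD was between 1.20 and 2.37 in the 4 treated hCAR/hPXR and CARko/PXRko groups and between 0.29 and 1.02 in the other groups.

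Among the enzymes that make the chain, Fasn read 13.91, 12.02 and 11.69 under CPA, against 11.50, 10.88 and 10.04 under corn oil. The lowest CPA array was thus above the highest corn oil array, by less than the spread within either group, and the difference was 1.73 ± 0.96 (adjusted p = 0.404). Acaca, the cytosolic carboxylase, read 11.85, 9.73 and 9.77, against 9.22, 9.19 and 8.54. Acacb, the mitochondrial form whose malonyl-CoA restrains fatty acid oxidation, read 10.75, 9.83 and 9.39, against 8.59, 8.30 and 8.01. Both carboxylases were higher on all 3 CPA arrays, by 1.47 ± 0.62 (adjusted p = 0.231) and 1.69 ± 0.64 (adjusted p = 0.160), and replicate 1 gave the highest CPA value of each. Acly overlapped between groups, with 13.10, 11.62 and 11.31 under CPA and 12.02, 11.22 and 10.83 under corn oil (0.65 ± 0.75, adjusted p = 0.761). Elovl6 overlapped too, with 13.24, 10.52 and 11.21 against 10.50, 10.62 and 10.21 (1.21 ± 0.84, adjusted p = 0.539). For both, 1 CPA array, replicate 1, carried most of the difference, which was 0.10 for Acly and 0.42 for Elovl6 without it. Without the same array the difference was 1.04 for Fasn, 0.77 for Acaca, 1.31 for Acacb, 0.51 for Me1 and 0.12 for Srebf1, and all 10 differences stayed above 0.

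Thrsp values were close together within each group, at 14.38, 14.06 and 14.32 under CPA, against 12.34, 12.53 and 12.37 under corn oil. Here the groups lay far apart relative to their own spread, with SDs of 0.17 and 0.10, and the difference was 1.84 ± 0.97 (adjusted p = 0.366). The SE is that large because the fit pools the spread of all 10 groups, and other groups varied widely in Thrsp. With the spread of these 2 groups alone the difference was called (adjusted p = 0.00109), as was that of Acacb (adjusted p = 0.0385), and 3.11% of all genes tested were called in that fit. Pnpla3 read 9.87, 8.73 and 6.32 under CPA, against 6.11, 5.88 and 6.16 under corn oil. CPA replicate 3 was close to the corn oil values, and the adjusted p was 0.0864 with all arrays and 0.00938 without that array, when the difference was 3.25. Without CPA replicate 1 the difference was 1.48 (adjusted p = 0.440). Me1 read 13.68, 12.09 and 12.64, against 11.64, 12.06 and 11.86, a difference of 0.95 ± 0.46 (adjusted p = 0.313). Srebf1 itself overlapped between the groups, with 12.42, 12.22 and 10.88 under CPA and 11.85, 11.17 and 11.26 under corn oil (0.41 ± 0.75, adjusted p = 0.871). Thus the transcription factor had one of the smallest mean differences of the set on the chosen probe sets, along with Scd1 at 0.40 ± 0.42 (adjusted p = 0.735). A second, dimmer Scd1 probe set gave a larger difference, described below.

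**Figure D3:**
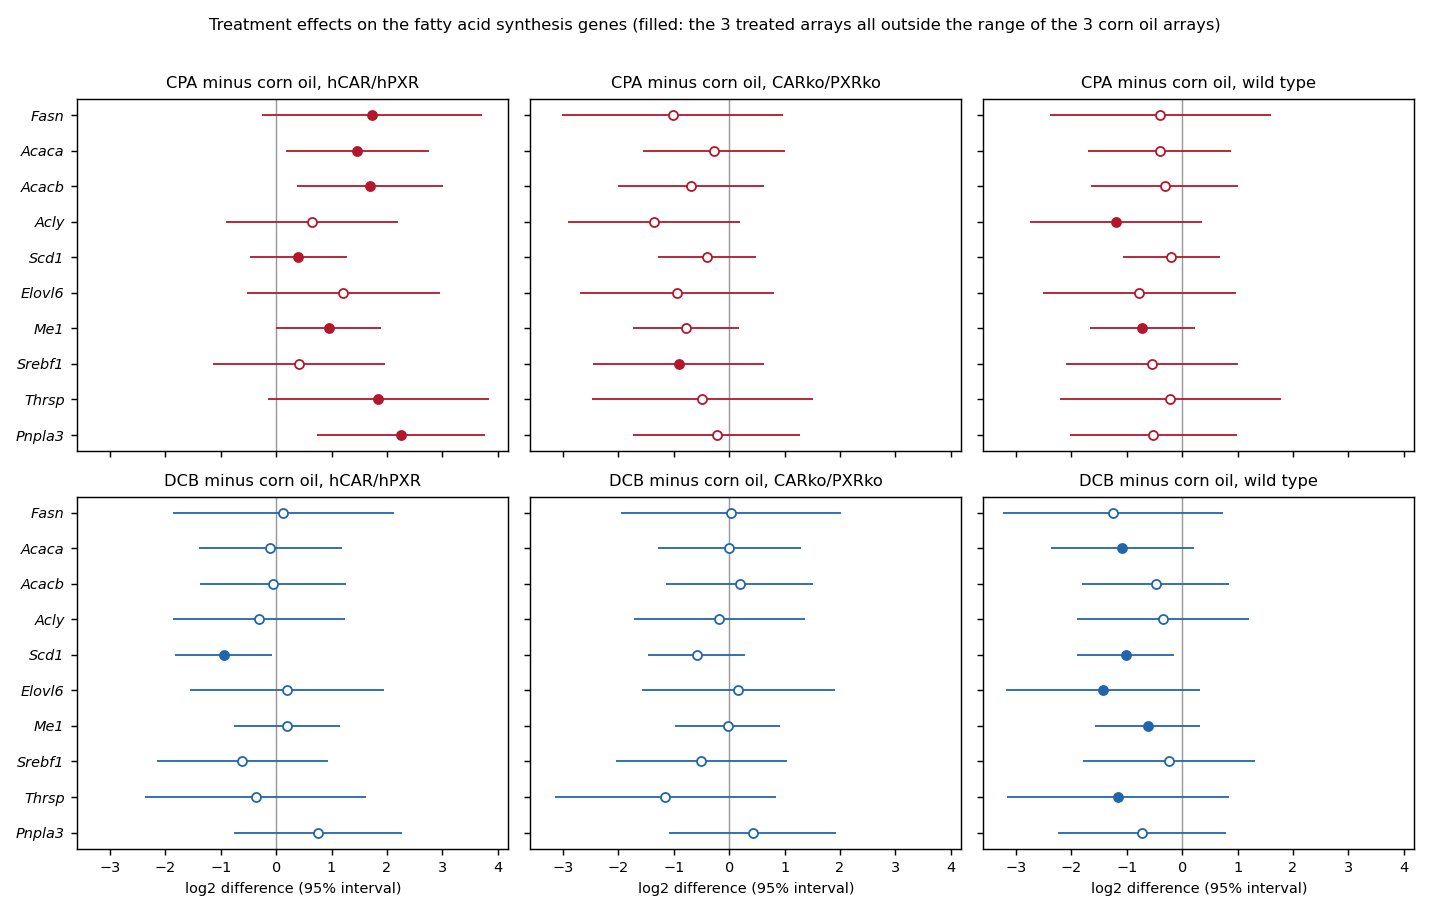
Log2 differences between treated and corn oil mice are plotted with 95% intervals for the 10 genes, with CPA above and DCB below, and filled points mark genes without overlap between the 3 treated and the 3 corn oil arrays. All 10 points lie to the right of 0 for CPA in hCAR/hPXR mice and to the left of 0 for CPA in CARko/PXRko mice and for both compounds in wild type mice.

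In wild type mice all 10 genes averaged lower under DCB than under corn oil, with a median difference of -0.87 and a range from -1.43 (Elovl6) to -0.24 (Srebf1). The 3 DCB arrays all lay below the 3 corn oil arrays for 5 of them (Acaca, Scd1, Elovl6, Me1 and Thrsp), as they did for 11.5% of all genes tested. None of the 10 was called, against 0.735% of all genes tested, and 1 (Scd1) had an unadjusted p under 0.05 in limma. Over all genes tested the median difference was -0.01. DCB and corn oil are both labelled as 3 days, so duration does not differ in this comparison. Medians of the 8 macrophage markers lay between -0.58 and -0.29 on the DCB arrays, against -0.08 to 0.08 on the corn oil arrays, with none of the 8 called in limma and 3 with an unadjusted p under 0.05, and their part in the result was not tested.

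Elovl6 read 9.48, 9.47 and 10.06 under DCB, against 11.60, 11.42 and 10.27 under corn oil, a difference of -1.43 ± 0.84 (adjusted p = 0.626). Its corn oil replicate 3 was the low array described above, and the difference was -1.85 without it. Scd1 read 13.72, 12.97 and 14.33, against 14.80, 14.91 and 14.38 (-1.02 ± 0.42, adjusted p = 0.370). Thrsp read 12.79, 12.65 and 12.20, against 13.93, 13.72 and 13.47. In that gene no array of one group came near the other, and its difference of -1.16 ± 0.97 (adjusted p = 0.780) was called with the spread of these 2 groups alone (adjusted p = 0.0290, with 0.86% of all genes tested called in that fit). Acaca read 8.63, 8.23 and 8.95 under DCB, against 10.06, 9.99 and 8.99 under corn oil (-1.08 ± 0.62, adjusted p = 0.615). Fasn had 10.53, 10.53 and 11.04, against 12.70, 12.35 and 10.78. Its groups overlapped through the low corn oil array alone, and the difference was -1.25 ± 0.96 (adjusted p = 0.755) with that array and -1.83 without it. Me1 differed by -0.62 ± 0.46, with 11.93, 11.66 and 12.19 under DCB against 12.70, 12.55 and 12.40 under corn oil. Acacb, Acly, Srebf1 and Pnpla3 overlapped between the groups, with differences from -0.72 (Pnpla3) to -0.24 (Srebf1).

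CPA in wild type mice also gave 10 lower means out of 10, smaller in size, with a median of -0.46. The CPA and DCB effects in wild type mice subtract the same corn oil arrays, so they are not separate evidence. Acly and Me1 were the genes whose CPA arrays all lay below the corn oil arrays, 2 of 10 against 14.4% of all genes tested. None of the 10 was called, against 1.12% of all genes tested, and none had an unadjusted p under 0.05 in limma. Acly read 10.94, 11.22 and 11.19 under CPA, against 12.71, 12.48 and 11.75 under corn oil (-1.20 ± 0.75, adjusted p = 0.681). Me1 read 11.42, 12.06 and 12.01, against 12.70, 12.55 and 12.40 (-0.72 ± 0.46, adjusted p = 0.695). With the spread of these 2 groups alone both were called, at adjusted p = 0.0147 for Acly and 0.0460 for Me1, in a fit that called 6.05% of all genes tested. Thrsp, whose DCB arrays lay apart from corn oil, read 13.70, 13.40 and 13.39 under CPA and overlapped the corn oil range (-0.21 ± 0.97). The comparison sets 6 labelled days of CPA against 3 of corn oil. Of the 8 macrophage markers 2 fell, with medians between -0.79 and -0.68 on the CPA arrays, against -0.08 to 0.08 on the corn oil arrays, and their part in the result was not tested.

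In CARko/PXRko mice, where CPA is labelled as 3 days like its control, all 10 genes again averaged lower under CPA, with a median of -0.73 and a range from -1.35 (Acly) to -0.23 (Pnpla3). None was called or had an unadjusted p under 0.05 in limma, against 5.49% of all genes tested called. Srebf1 was the gene whose 3 CPA arrays all lay below, at 11.49, 11.53 and 9.76 against 12.08, 11.86 and 11.58 under corn oil (-0.91 ± 0.75, adjusted p = 0.499), and 12.8% of all genes tested showed that pattern. The CPA group was uneven, as Fasn shows with 11.47, 12.28 and 8.80, against 12.28, 11.76 and 11.57 under corn oil. Without CPA replicate 3, the array on which all 10 genes were lowest, the differences ran from -0.62 (Acly) to 0.82 (Thrsp), with Acaca, Elovl6, Thrsp and Pnpla3 positive and Fasn at 0.00. Leaving out corn oil replicate 2, which carried muscle and adipocyte transcripts, gave differences from -1.20 (Acly) to 0.03 (Pnpla3). Macrophage marker medians lay between -0.87 and -0.21 on the CPA arrays, against -0.44 to 0.01 on the corn oil arrays, and their part in the result was not tested.

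DCB gave no common direction in the other genotypes. In hCAR/hPXR mice 4 of the 10 genes averaged higher and 6 lower, with a median of -0.08. Scd1 was the gene whose DCB arrays all lay below corn oil, at 13.93, 13.80 and 12.55 against 14.62, 14.52 and 13.98 (-0.94 ± 0.42, adjusted p = 0.181), a pattern shown by 13.8% of all genes tested. It was also the only one of the 10 with an unadjusted p under 0.05 in limma. That p ranked 2548 among the 12795 genes tested, so p-values this small were common in the comparison. None was called, against 7.64% of all genes tested. The group held 1 array far below the others. Fasn read 12.88, 11.63 and 8.30 under DCB, against 11.50, 10.88 and 10.04 under corn oil, and its difference was 0.13 with all arrays and 1.45 without DCB replicate 3. Without that array 9 of the 10 genes averaged higher, from 0.54 to 1.45, and Scd1 was still lower, at -0.50. The macrophage markers were lower under DCB as well (4 of 8 fell), with medians between -1.01 and -0.48 on the DCB arrays, against 0.06 to 0.37 on the corn oil arrays, and their part in the result was not tested.

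In CARko/PXRko mice DCB gave 5 higher and 5 lower means, with a median of -0.01, and the DCB arrays of every gene overlapped those of corn oil. None was called or had an unadjusted p under 0.05 in limma, against 0.117% of all genes tested called. Thrsp had the largest mean difference, with 13.94, 9.09 and 13.51 under DCB against 13.81, 12.55 and 13.63 under corn oil (-1.15 ± 0.97, adjusted p = 0.827). It rested on replicate 2, and without that array the difference was 0.39. Both of the DCB arrays with skeletal muscle transcripts are in this group. Without the arrays that carried adipocyte transcripts (DCB replicate 3 and corn oil replicate 2), the difference was -0.58 for Fasn, -2.20 for Thrsp and 0.60 for Pnpla3. Leaving out the arrays with muscle transcripts kept a single DCB array and gave 1.11 for Fasn, 0.22 for Thrsp and 2.16 for Pnpla3. Without DCB replicate 1, which both of those choices retain, the difference was -0.53 for Fasn, -2.03 for Thrsp and -0.32 for Pnpla3. The macrophage marker medians lay between -0.80 and -0.60 on the DCB arrays, against -0.44 to 0.01 on the corn oil arrays, with none of the 8 called in limma and 2 with an unadjusted p under 0.05, and their part in the result was not tested.

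The compounds were then compared with each other within each genotype, which shares no control arrays. Dose differed (CPA 160 mg/kg, DCB 600 mg/kg), as did the labelled days except in CARko/PXRko mice. In hCAR/hPXR mice all 10 genes averaged higher under CPA than under DCB, with a median difference of 1.42 and a range from 0.76 (Me1) to 2.21 (Thrsp). Scd1, the desaturase that makes oleate, was higher by 1.34 ± 0.42 (2.53-fold, adjusted p = 0.0479), and it was the only call among the 10 genes in any of the 16 comparisons. That is 1 of 10, against 9.31% of all genes tested called in either direction and 5.24% called higher. Scd1 read 14.96, 14.66 and 14.69 under CPA, against 13.93, 13.80 and 12.55 under DCB, without overlap. Thrsp was the other gene without overlap, with 14.38, 14.06 and 14.32 against 13.49, 12.67 and 9.97 (2.21 ± 0.97, adjusted p = 0.152), and 11% of all genes tested had all CPA arrays above all DCB arrays. Unadjusted p-values under 0.05 were found for Scd1, Acacb, Acaca and Thrsp.

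The Scd1 call was close to the threshold and did not hold under most other settings. Without DCB replicate 3, the array on which all 10 genes were lowest, the difference was 0.90 (adjusted p = 0.247). Without that array Acly (-0.21) and Srebf1 (-0.12) turned negative and the other 8 genes differed by 0.02 (Elovl6) to 1.17 (Thrsp). Without any 1 of the 3 CPA arrays the adjusted p of Scd1 was between 0.0735 and 0.147, and with the spread of these 2 groups alone it was 0.159. Without DCB replicate 1, in contrast, Acaca (2.05, adjusted p = 0.0491) and Acacb (2.49, adjusted p = 0.0152) were called as well, and without CPA replicate 3 Pnpla3 was (2.49, adjusted p = 0.0260). The chosen Scd1 probe set (1415964_at) lay between 12.55 and 14.96 over the 30 arrays, near the highest value of any probe set on an array, which was between 15.21 and 15.34. A second Scd1 probe set (1415965_at) spanned a wider range, from 7.31 to 12.84. It read 12.84, 11.25 and 11.37 under CPA, against 9.92, 9.89 and 7.97 under DCB in hCAR/hPXR mice. On that probe set the groups did not overlap either, the difference was 2.56, and the adjusted p was 0.0529 when every probe set was tested on its own. Against corn oil this probe set gave a CPA difference of 1.54 ± 0.82, where the chosen one gave 0.40 ± 0.42.

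**Figure D4:**
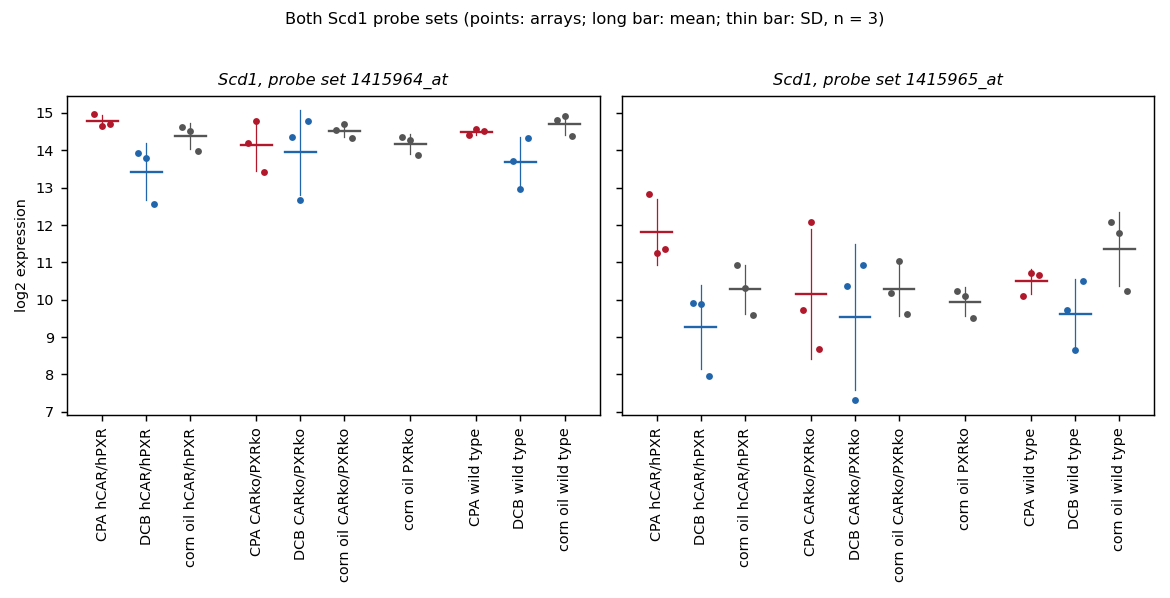
Log2 expression of Scd1 is plotted by group for both of its probe sets, with points for arrays, long bars for means and thin bars for the SD (n = 3). On 1415964_at the CPA arrays of hCAR/hPXR mice lie at 14.66 to 14.96 and the DCB arrays at 12.55 to 13.93, and on 1415965_at they lie at 11.25 to 12.84 and 7.97 to 9.92.

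In wild type mice CPA gave higher means than DCB for 7 of the 10 genes, with a median of 0.43. For 6 of them (Fasn, Acaca, Scd1, Elovl6, Thrsp and Pnpla3) every CPA array was above every DCB array, and 14.8% of all genes tested had that order. Acly ran the other way, with 10.94, 11.22 and 11.19 under CPA against 12.27, 11.66 and 11.97 under DCB (-0.85 ± 0.75, adjusted p = 0.690), below without overlap as were 15.4% of all genes tested. None of the 10 was called or had an unadjusted p under 0.05 in limma, against 2.01% of all genes tested called. With the spread of these 2 groups alone, Fasn (0.85, adjusted p = 0.0457), Thrsp (0.95, adjusted p = 0.0200) and Acly (-0.85, adjusted p = 0.0269) were called, as were 6.1% of all genes tested. In CARko/PXRko mice 8 of the 10 averaged lower under CPA than under DCB, with a median of -0.70 and overlapping arrays for all 10. None was called or had an unadjusted p under 0.05 in limma, against 7.6% of all genes tested called. Thrsp (0.66) and Scd1 (0.19) were the exceptions in direction. Of the 3 DCB arrays, replicates 2 and 3 carried muscle transcripts and replicate 3 fat transcripts. Without both of them all 10 genes were lower under CPA, from -2.18 (Fasn) to -0.24 (Scd1), with 1 DCB array left. Without replicate 3 alone 7 were lower and 3 higher, with a median of -0.40, and without replicate 2 alone all 10 were lower, from -2.18 (Fasn) to -0.45 (Scd1).

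Under corn oil the genotypes were compared to see whether the pathway differed at rest. All 10 genes averaged lower in hCAR/hPXR than in wild type mice, with a median of -0.70 and a range from -1.30 (Thrsp) to -0.32 (Scd1). None was called or had an unadjusted p under 0.05 in limma, against 0.0234% of all genes tested called. Thrsp and Me1 did not overlap between the groups, as 4.83% of all genes tested did not in that direction. Thrsp read 12.34, 12.53 and 12.37 in hCAR/hPXR mice, against 13.93, 13.72 and 13.47 in wild type mice (-1.30 ± 0.97, adjusted p = 1.00), and it was called with the spread of these 2 groups alone (adjusted p = 0.0370, with 0.0313% of all genes tested called in that fit). Me1 read 11.64, 12.06 and 11.86, against 12.70, 12.55 and 12.40 (-0.70 ± 0.46).

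PXRko mice under corn oil also averaged lower than wild type for all 10 genes, with a median of -0.55. The hCAR/hPXR and PXRko comparisons at rest and both treatment effects in wild type mice subtract the same wild type corn oil arrays. They are therefore not separate evidence. Scd1 (14.35, 14.29 and 13.87 in PXRko, against 14.80, 14.91 and 14.38 in wild type) and Me1 (11.78, 12.10 and 11.91, against 12.70, 12.55 and 12.40) did not overlap, and 4.7% of all genes tested lay below in that way. None was called or had an unadjusted p under 0.05 in limma, against 0.0234% of all genes tested called. Without PXRko replicate 3, which carried muscle transcripts, all 10 differences were below 0, from -0.62 to -0.06. In CARko/PXRko mice 8 of the 10 were lower and 2 higher, with a median of -0.12, no gene without overlap, and none called or with an unadjusted p under 0.05 in limma (0.0391% of all genes tested were called). Without corn oil CARko/PXRko replicate 2, 7 were lower and 3 higher, from -0.36 (Acly) to 0.20 (Pnpla3). Srebf1 read 12.08, 11.86 and 11.58 in CARko/PXRko livers, 12.12, 11.51 and 11.41 in PXRko livers and 12.20, 12.06 and 11.37 in wild type mice. In hCAR/hPXR livers it read 11.85, 11.17 and 11.26 (mean 11.43, against 11.88 in wild type mice). The arrays of each of these genotypes overlapped those of wild type mice.

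Whether a compound acted differently in a mutant genotype than in wild type mice was tested as the difference of the effects. For CPA, the effect in hCAR/hPXR mice exceeded that in wild type mice for all 10 genes, with a median of 1.93 and a range from 0.60 (Scd1) to 2.77 (Pnpla3). The difference was 2.77 ± 1.04 for Pnpla3 (adjusted p = 0.977) and 1.67 ± 0.65 for Me1 (adjusted p = 0.989). None of the 10 was called in limma, against 0.0625% of all genes tested, and 4 had an unadjusted p under 0.05 (Pnpla3, Me1, Acacb and Acaca). With the spread of the 4 groups alone, Thrsp was called (2.05, adjusted p = 0.00157), as were 0.0938% of all genes tested. The corn oil arrays of both genotypes enter this difference. Under CPA itself Thrsp read 14.38, 14.06 and 14.32 in hCAR/hPXR mice, against 13.70, 13.40 and 13.39 in wild type mice. Pnpla3 read 9.87, 8.73 and 6.32, against 6.04, 6.07 and 6.00.

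The other differences of effects were smaller or less even. For CPA in CARko/PXRko against wild type mice the median over the 10 genes was -0.18, with 2 positive and 8 negative values, and the labelled days differ between these groups. For DCB the effect was higher than in wild type for 9 of the 10 genes in hCAR/hPXR mice (median 0.80) and likewise in the CARko/PXRko genotype (median 0.63), with Srebf1 as the exception in both. Both contrasts use the same wild type arrays, and those for hCAR/hPXR and CARko/PXRko mice are therefore not separate evidence. None of the 10 genes was called, or had an unadjusted p under 0.05 in limma, in these 3 comparisons. Over all genes tested, 0% were called in both DCB comparisons and 0.0703% in that of CPA. Without the arrays carrying adipocyte transcripts the DCB difference in CARko/PXRko mice was positive for 6 and negative for 4 of the 10 genes (median 0.25), and without those carrying muscle transcripts, with 1 DCB array left, it was positive for all 10 (median 1.15). The CPA difference was positive for 2 and negative for 8 of them without corn oil CARko/PXRko replicate 2.

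Ordered by group mean, Fasn ran from 12.54 ± 1.20 (SD, n = 3) under CPA in hCAR/hPXR mice to 10.70 ± 0.29 under DCB in wild type mice. Between these lay corn oil wild type (11.94 ± 1.02), DCB CARko/PXRko (11.90 ± 1.95), corn oil CARko/PXRko (11.87 ± 0.36), CPA wild type (11.55 ± 0.33), corn oil PXRko (11.49 ± 0.51), DCB hCAR/hPXR (10.94 ± 2.37), CPA CARko/PXRko (10.85 ± 1.82) and corn oil hCAR/hPXR (10.81 ± 0.73). No neighbours in that order differed beyond their spread. CPA hCAR/hPXR was the highest group for 8 of the 10 genes, and corn oil wild type was the highest for Acly and Srebf1. DCB wild type was the lowest group for Fasn, Acaca, Elovl6 and Pnpla3, DCB hCAR/hPXR for Acacb, Scd1, Srebf1 and Thrsp, and CPA CARko/PXRko for Acly and Me1.

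Genes whose 10 group means followed those of Fasn most closely were found by Pearson correlation over the tested genes, as a description. Among genes outside the lists these were Zkscan8 (0.95), Golga2 (0.95), Raver1 (0.94), Phkb (0.91) and Pdhb (0.91). Acaca (0.91), Acacb (0.91) and Elovl6 (0.89) ranked 4, 7 and 10 among all genes tested. Over the 30 single arrays the order differed, with 0.92 for Acaca, 0.91 for Acacb and 0.89 for Elovl6 but 0.46 for Zkscan8, 0.29 for Golga2 and 0.45 for Raver1. The first 3 genes outside the lists thus followed Fasn less closely over arrays than over group means. Phkb reached 0.64 and Pdhb 0.71 over arrays.

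Genes around the pathway were described from fixed lists. Among 15 measured lipogenic regulators, Insig2, which holds the SREBP precursor in the endoplasmic reticulum, rose under CPA in every genotype tested. It read 12.83, 12.57 and 13.20 under CPA in hCAR/hPXR mice, against 11.12, 11.33 and 11.56 under corn oil (1.53 ± 0.34, adjusted p = 0.00915). The CARko/PXRko values were 12.74, 12.72 and 12.47 under CPA, against 10.97, 11.12 and 11.49 under corn oil (1.45 ± 0.34, adjusted p = 0.0142). In wild type mice it read 13.20, 12.88 and 12.49 under CPA, against 10.84, 10.85 and 11.10 under corn oil (1.93 ± 0.34, adjusted p = 0.00411). Every CPA array was above every corn oil array in all 3 genotypes, CARko/PXRko mice included. The call held under all 11 other settings tried in wild type, 12 of 13 in CARko/PXRko and 9 of 11 in hCAR/hPXR mice. Under DCB it read 10.79, 11.12 and 12.78 in hCAR/hPXR mice, so replicate 3, the array low in all 10 lipogenic genes, lay within the range of the CPA arrays. Pparg, a nuclear receptor that drives lipid storage, and Xbp1 fell under CPA in CARko/PXRko mice, Pparg to 6.74, 6.61 and 6.76, against 8.03, 7.85 and 7.88 under corn oil (-1.22 ± 0.22, adjusted p = 0.00182). The Pparg call held under all 13 other settings, and that of Xbp1 under 8 of 13. Of the 15 regulators under CPA, 1 rose in hCAR/hPXR mice (1.52% of all genes tested rose), with a list median of -0.12. In the CARko/PXRko genotype 1 rose and 2 fell (2.18% and 3.31% of all genes tested), with a list median of -0.53, and 1 rose in wild type mice (0.485% of all genes tested), with a list median of -0.21.

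**Figure D5:**
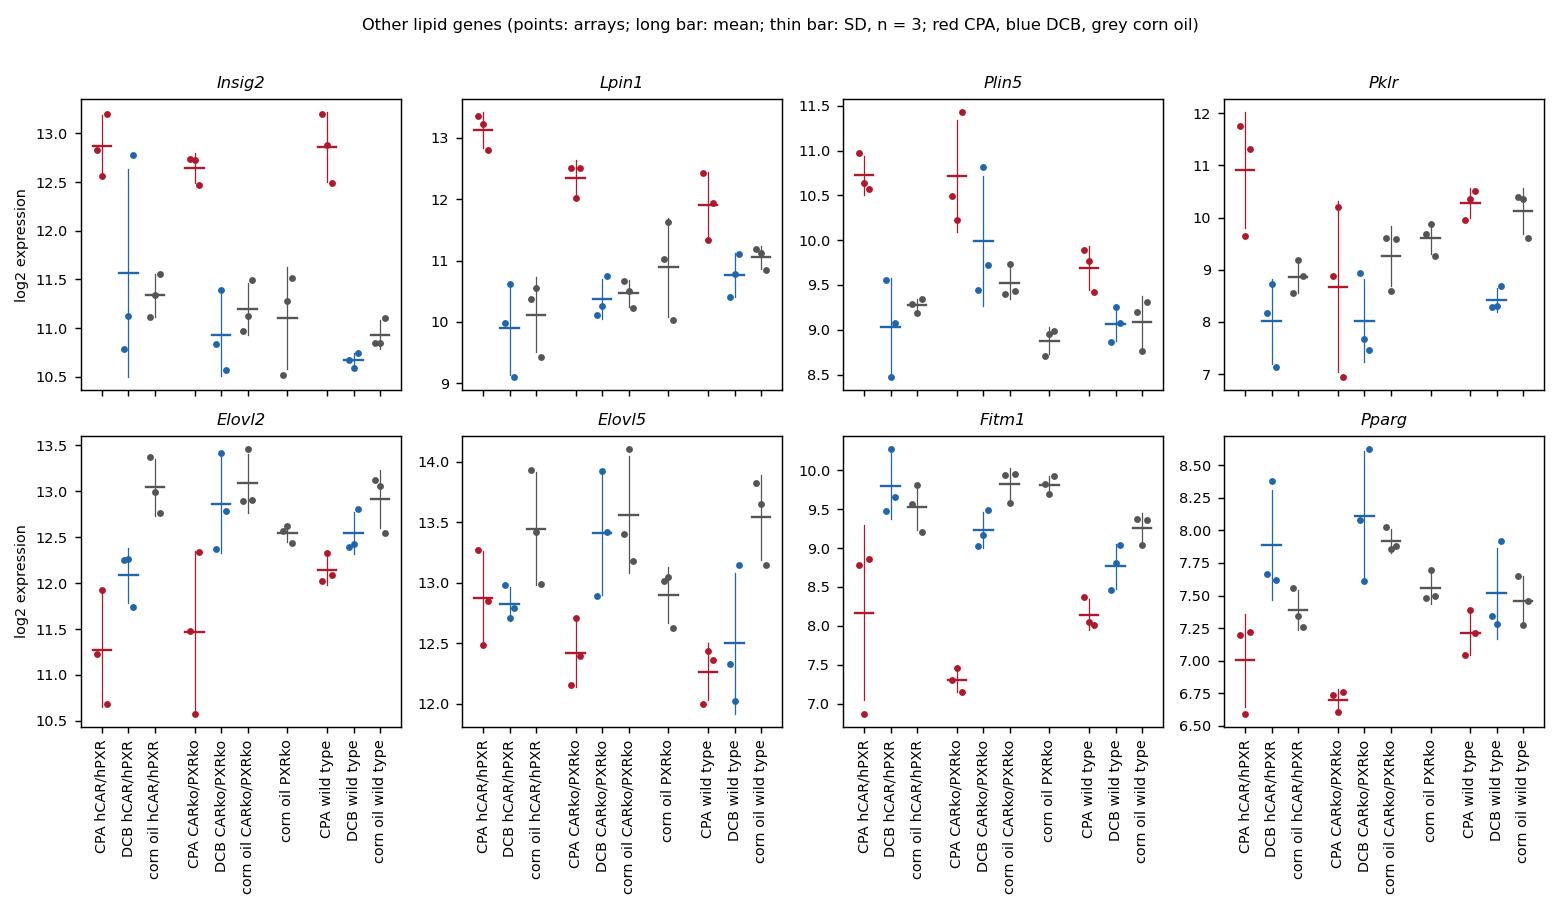
Log2 expression of 8 other lipid genes is plotted by group, with points for arrays, long bars for means and thin bars for the SD (n = 3). Insig2 lies between 12.47 and 13.20 on the 9 CPA arrays and between 10.51 and 11.56 on the 12 corn oil arrays.

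Among 21 triglyceride synthesis and lipid droplet genes, Lpin1, whose product makes diacylglycerol and also acts as a coactivator of fatty acid oxidation genes, had the largest rise. It read 13.36, 13.22 and 12.81 under CPA in hCAR/hPXR mice, against 10.36, 10.56 and 9.42 under corn oil (3.01 ± 0.37, adjusted p = 2.34e-05). It also rose without the receptors, with 12.51, 12.03 and 12.52 under CPA in CARko/PXRko mice, against 10.66, 10.50 and 10.23 under corn oil (1.89 ± 0.37, adjusted p = 0.00365). These Lpin1 calls held under every other setting tried (11 and 13). Plin5, a droplet coat protein of oxidative tissue, read 10.97, 10.64 and 10.57 under CPA in hCAR/hPXR mice, against 9.29, 9.19 and 9.34 under corn oil, a rise of 1.45 ± 0.30 (adjusted p = 0.00472), and it rose by 1.19 ± 0.30 in the CARko/PXRko genotype (adjusted p = 0.0205). The Plin5 call in CARko/PXRko mice was kept by 9 of 13 other settings. Fitm1, which encodes an endoplasmic reticulum protein that aids droplet formation, fell under CPA to 7.31, 7.45 and 7.15 in CARko/PXRko mice, against 9.94, 9.59 and 9.95 under corn oil (-2.52 ± 0.33, adjusted p = 6.1e-05). It was lower under CPA in hCAR/hPXR mice too (-1.36 ± 0.33, adjusted p = 0.0162), a call that 7 of 11 other settings kept. In wild type mice none of Lpin1, Plin5 and Fitm1 was called under CPA, though each moved the same way without overlap. Lpin1 read 12.43, 11.34 and 11.93 there, against 11.19, 11.13 and 10.84 under corn oil. Plin5 read 9.89, 9.76 and 9.42 there, against 9.20, 8.76 and 9.31 under corn oil. Fitm1 read 8.37, 8.05 and 8.01, against 9.37, 9.04 and 9.36. Plin2, a droplet coat gene that fat cells also express, was also lower with CPA in the CARko/PXRko genotype, at -1.08 ± 0.31 (adjusted p = 0.0409), a call that 3 of 13 other settings kept and that was lost without corn oil replicate 2, the array with muscle and adipocyte transcripts. In hCAR/hPXR mice 2 of the 21 rose and 1 fell (1.52% and 2.9% of all genes tested), with a list median of 0.23. For CARko/PXRko mice 2 rose and 2 fell (2.18% and 3.31% of all genes tested), with a list median of -0.15.

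Of 18 other synthesis, elongation and desaturation enzymes, 6 fell under CPA in CARko/PXRko mice, where 3.31% of all genes tested fell. In hCAR/hPXR mice 1 fell, where 2.9% of all genes tested did. In wild type mice 1 fell, where 0.485% and 0.633% of all genes tested rose and fell. Elovl2, which lengthens polyunsaturated fatty acids, fell by 1.62 ± 0.34 in the CARko/PXRko genotype (adjusted p = 0.00543). In hCAR/hPXR mice it fell to 11.23, 11.92 and 10.68 under CPA, against 13.38, 12.99 and 12.76 under corn oil (-1.76 ± 0.34, adjusted p = 0.00217). Elovl3 fell by 3.18 ± 0.70 and Fads1 by 1.29 ± 0.31 in CARko/PXRko mice, calls that 9 of 13 and 10 of 13 other settings kept. That of Elovl3 was lost without CPA replicate 1 and without corn oil replicate 1 or 3. The other 2 were Fads2, a desaturase of polyunsaturated fatty acids, and Slc25a1, the carrier that exports citrate from mitochondria for Acly, and 3 of 13 other settings kept each of these calls. Without corn oil CARko/PXRko replicate 2 the calls of Elovl2 (-1.43) and Elovl3 (-4.29) held, and those of Elovl5 (-0.87), Fads1 (-1.10), Fads2 (-1.01) and Slc25a1 (-0.76) were lost. Elovl5 fell by 1.14 ± 0.30 in CARko/PXRko (adjusted p = 0.0282) and by 1.28 ± 0.30 in wild type mice (adjusted p = 0.0356), calls that 7 of 13 and 6 of 11 other settings kept.

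Among 4 measured glycolytic and carbohydrate-responsive genes, Pklr (liver pyruvate kinase) rose by 2.04 ± 0.59 (adjusted p = 0.0477) and Khk (ketohexokinase) by 1.24 ± 0.35 (adjusted p = 0.0406) under CPA in hCAR/hPXR mice. Pklr read 11.75, 9.66 and 11.32 under CPA, against 8.56, 9.18 and 8.88 under corn oil. Both calls were lost under most other settings, as 3 of 11 kept that of Khk and 4 of 11 that of Pklr. Under DCB in hCAR/hPXR mice, Txnip fell by 1.52 ± 0.42 (adjusted p = 0.0284), Pgd, an NADPH-making enzyme of the pentose phosphate pathway, rose by 1.65 ± 0.46 (adjusted p = 0.0275), and Hacd3, an elongation enzyme, rose by 0.51 ± 0.13 (adjusted p = 0.0161). The Txnip and Pgd calls were each kept by 6 of 11 other settings, and that of Hacd3 by 9 of 11. Of all genes tested, 3.29% rose and 4.35% fell in that comparison. No gene of the 7 pathway lists was called under DCB in wild type or CARko/PXRko mice in limma, where 6 and 10 of them had an unadjusted p under 0.05. Hacd3 and Pgd were nonetheless higher under DCB in wild type mice too, without overlap, whereas Txnip overlapped. Hacd3 read 13.17, 13.08 and 13.08 there, against 12.64, 12.50 and 12.63 under corn oil. Pgd read 11.88, 11.05 and 11.75, against 10.48, 10.25 and 9.78. The 9 cholesterol synthesis genes, which SREBP-2 controls, had no call in any treatment effect in limma and no unadjusted p under 0.05, with medians from -0.77 (CPA in CARko/PXRko mice) to 0.72 (DCB in hCAR/hPXR mice). Of 13 fatty acid oxidation genes, Hadha fell under CPA in CARko/PXRko mice (-0.62 ± 0.18, adjusted p = 0.0492), a call that 2 of 13 other settings kept and that was lost without corn oil replicate 2 (-0.46).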

How the data were processed

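Liver RNA was measured on 30 arrays, 3 in each of 10 groups taken from the sample titles. The authors deposited 1 log2 value for each probe set and array, made with RMA, per the submitters' processing notes, and the version is not given in the sources used here. RMA corrects background and normalizes between arrays, so differences are relative to the other probe sets, and array medians lay between 5.36 and 5.44. Of 45037 probe sets, 34945 were annotated to 1 gene, 932 to several and 9160 to none, and 34741 of the single-gene probe sets matched a RefSeq gene (GRCm38.p6).

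For each gene the single-gene probe set with the highest mean over the arrays was used, and genes above the median of an array on 3 or more arrays were tested. limma 3.58.1 (lmFit and eBayes, in R 4.3.3) fitted the 10 group means over the 30 arrays in 1 model, with 20 residual degrees of freedom and a prior of 3.62, for 16 comparisons. P-values were two-sided with Benjamini-Hochberg adjustment over 12795 genes, and calls were made below 0.05. The precision is limited by the number of arrays. The fit was tested on simulated data, with normal noise that had the same SD in every group for a given gene. That test cannot show how the fit behaves where groups differ in spread, as they do for these genes.

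The 10 genes and the lists were chosen with earlier results of these data known. Genes named were the 10 genes, Nr1i3, Nr1i2, up to 4 called genes per list and comparison with the smallest p, and the 5 genes outside the lists whose group means followed Fasn most closely; others named were chosen after their values were seen. Replicate numbers come from the sample titles. Deviations from group means of same-numbered arrays correlated at 0.13, 0.11 and 0.45 between corn oil hCAR/hPXR and wild type mice and at 0.43, 0.11 and 0.45 between corn oil PXRko and wild type mice, and in no other comparison were all 3 values over 0.1. Alternatives were no filter, each array centred on its median, averaging a gene's probe sets, the replicate block, only the groups compared, single arrays left out and arrays with other tissues left out. Testing every probe set on its own was added after seeing the data.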

Additional observations from a re-analysis of the deposited data

Results flagged for a closer look

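Me1 differed in direction between genotypes under CPA. The CPA arrays read 13.68, 12.09 and 12.64 in hCAR/hPXR mice, all above corn oil at 11.64, 12.06 and 11.86. In wild type mice they read 11.42, 12.06 and 12.01, all below corn oil at 12.70, 12.55 and 12.40. The difference of the effects was 1.67 ± 0.65, which did not pass the test (limma, adjusted p = 0.989). The direction was not particular to Me1. All 10 genes averaged higher under CPA in hCAR/hPXR mice and lower in wild type mice, with a median difference of the effects of 1.93. The labelled days of CPA were the same in both genotypes.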

How the results depend on the processing

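The 160 values of the 10 genes in 16 comparisons were recomputed under 2290 alternatives. Of these, 2269 stayed on the same side of the threshold, 14 were newly called, 7 were no longer called, and 0 called values changed sign. With only the groups compared in the fit, 1 of the 10 genes was called for DCB in wild type mice (Thrsp, with 110 of all 12795 genes), 2 for CPA in hCAR/hPXR (Acacb and Thrsp, with 398), 2 for CPA in wild type (Acly and Me1, with 774), 3 for CPA minus DCB in wild type (Fasn, Acly and Thrsp, with 781), 1 for corn oil hCAR/hPXR minus wild type (Thrsp, with 4) and 1 for the CPA effect in hCAR/hPXR minus wild type (Thrsp, with 12). For CPA minus DCB in hCAR/hPXR mice the count was 0 in that fit and 0 with no filter on dim genes (Scd1 at adjusted p = 0.0603), against 1 in the fit of all groups. Leaving out single arrays gave 0 to 1 called genes for CPA in hCAR/hPXR and 0 to 3 for CPA minus DCB in hCAR/hPXR. The Scd1 call was kept under 5 of 12 alternatives, with adjusted p from 0.0301 to 0.247. Cidec, a droplet gene of fat cells, was lower under CPA than under DCB in CARko/PXRko mice (-3.21) and reversed to 0.20 without the arrays carrying muscle transcripts.

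Counts over all genes moved more. With only the groups compared, the calls over all genes were 82, against 978 with all groups, for DCB in hCAR/hPXR, 0 against 15 for DCB in CARko/PXRko, 136 against 702 for CPA in CARko/PXRko, 774 against 143 for CPA in wild type, 65 against 1191, 7 against 972 and 781 against 257 for CPA minus DCB in hCAR/hPXR, CARko/PXRko and wild type mice. The cause was not tested. Single arrays left out gave 337 to 1056 genes for DCB and 257 to 562 for CPA in hCAR/hPXR mice.

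With the replicate number as a block, the count of called genes among the 10 stayed at 1 for CPA minus DCB in hCAR/hPXR mice and at 0 in the other comparisons, and no all-gene count moved by over 1.5 times (1239 against 1191 for that comparison). Outside the pairs of groups named in the methods, correlations of same-numbered arrays did not show that arrays belong together. The mean of the 10 genes did run in replicate order in every corn oil group, highest on replicate 1 and lowest on 3. It was 0.40, 0.20 and -0.60 in wild type and -0.25, -0.44 and -0.75 in PXRko mice. The CPA and DCB groups of hCAR/hPXR mice ran the same way, and those of wild type and CARko/PXRko mice did not. What that order reflects was not tested. The duration labels, the 3 arrays per group and the wide spread of these genes limit every comparison here.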

Other observations

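The arrays on which all 10 lipogenic genes were lowest differed from each other in other lipid genes. On CPA CARko/PXRko replicate 3 the median of 9 cholesterol synthesis genes relative to wild type corn oil was -2.92, against 0.24 and 0.60 on the other arrays of that group. On DCB hCAR/hPXR replicate 3 it was -0.63, against 1.12 and 0.51. On DCB CARko/PXRko replicate 2 it was -0.44, between the 0.70 and -0.81 of its partners, and on corn oil wild type replicate 3 it was -0.01. Cyp4a14, a target of the fatty acid receptor PPAR alpha that rises in fasting, read 12.53 on corn oil wild type replicate 3, against 7.08 and 7.03 on the other wild type corn oil arrays. It read 13.81 on CPA CARko/PXRko replicate 3, against 11.79 and 10.58, and 14.35 on DCB CARko/PXRko replicate 2, against 11.79 and 11.72, the highest of its group each time. On DCB hCAR/hPXR replicate 3 it read 12.60, against 12.93 and 12.56. Within groups the correlation between pairs had a median of 0.91 among the 9 cholesterol genes and 0.53 among 13 oxidation genes.

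Set against DCB, CPA gave further calls around the pathway. In hCAR/hPXR mice Lpin1 was higher by 3.23 ± 0.37 (adjusted p = 1.07e-05), Pklr by 2.90 ± 0.59 (adjusted p = 0.00307) and Plin5 by 1.69 ± 0.30 (adjusted p = 0.000943) under CPA. In CARko/PXRko mice the oxidation genes Hadhb (-1.15 ± 0.22, adjusted p = 0.00345) and Hadha (-0.93 ± 0.18, adjusted p = 0.00437) were lower under CPA than under DCB. Both calls were lost without the arrays carrying muscle transcripts, DCB replicates 2 and 3 among them (Hadhb -0.51, adjusted p = 0.321, and Hadha -0.46, adjusted p = 0.329). Of 19 pathway genes called in that comparison, 2 kept their call without those arrays and 9 without the arrays carrying adipocyte transcripts. In wild type mice Cyp4a14 was lower under CPA by 5.29 ± 1.24 on the log2 scale (adjusted p = 0.0228), with 6.09, 8.58 and 5.98 under CPA against 11.92, 12.35 and 12.26 under DCB. Its groups did not overlap, and the call was kept when 1 of the 6 arrays was left out and lost for each of the other 5. Hacd3 was lower under CPA than under DCB in hCAR/hPXR (-0.81 ± 0.13), CARko/PXRko (-0.59 ± 0.13) and wild type mice (-0.77 ± 0.13), called in each, though the CARko/PXRko call was lost without the arrays carrying muscle transcripts (-0.44, adjusted p = 0.109). Of 23 probe sets for the 10 genes, 20 were tested on their own. For CPA in hCAR/hPXR mice all 20 were higher than under corn oil (0.40 to 2.69), and for DCB in wild type mice all 20 were lower (-1.74 to -0.08).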
